A study of Mus musculus with 6 samples.

Results

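Lyve1, Oit3, Gpihbp1, Dnase1l3 and Mrc1 are 5 genes grouped here as genes of the sinusoidal endothelium. They were followed through mouse sections of fetal liver, bone marrow and spleen in which the RNA molecules of a chosen panel of genes were decoded in place. The genes were taken by name from the gene lists of the sections, which hold 5294 different genes in all. All 5 were on the smaller panel of 477 genes used for 4 sections, and only Lyve1 and Mrc1 were on the larger panel of 5050 genes used for 2 others. Each section was 5 µm thick and came from wild-type C57BL/6 mice, with 1 section per condition. The smaller panel was used on a fetal liver of embryonic day 14.5 (E14.5), the femoral marrow of a mouse on postnatal day 8 (P8), the spleen of an adult mouse with no treatment named in its labels (NC) and the spleen of a mouse that received 40 mg/kg phenylhydrazine (PHZ) into the peritoneum, 2 times a day for 2 days. Both spleens came from mice described as 2 months old, although the age of normal spleens is also given as 3 months. Whether the NC mouse received the vehicle was not settled by the sources used here. PHZ destroys circulating red cells, and the spleen answers with red cell production of its own. The larger panel was used on a fetal liver of E13.5 and on the marrow of a mouse aged 89 weeks (89wk). Nothing in the labels says that more than 1 animal stands behind a section, so no difference between conditions could be tested, and every interval given here covers counting error only, at 95%.

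Sinusoids are wide capillaries with a leaky wall, through which blood cells and large particles come into close contact with a tissue. Their endothelium shares endocytic receptors with macrophages, which line or cross the same vessels and take up the same cargo. LYVE1 is a hyaluronan receptor of lymphatic vessels and liver sinusoids and is also found on some tissue macrophages. MRC1, the mannose receptor, takes up glycoproteins in macrophages and in sinusoidal endothelium. GPIHBP1 is held in the capillary wall by a lipid anchor and carries lipoprotein lipase to the lumen. OIT3 is a secreted protein with a zona pellucida domain, known mainly from the liver. DNASE1L3 is a secreted nuclease that digests the DNA of dead cells, and dendritic cells and macrophages are known to make it too. C1qa, C1qb and C1qc, which encode the chains of complement C1q, served here as the macrophage gate, and Kdr, Tie1 and Clec14a, which encode endothelial surface receptors, as the endothelial gate.

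The sections kept between 5254 and 140707 cells with at least 5 detected genes, at a median of 62 to 191 counts per cell. Sections on the smaller panel held between 6435193 and 20952120 gene counts. Control probes without a target in the mouse averaged between 0.1 and 42 counts over a whole section, whereas the least abundant of the 5 genes had at least 203 counts in any section. Cell names were shared in 10 of 15 pairs of sections, by at most 6 cells. An outline can cover parts of neighboring cells, so a count in a cell does not prove that this cell made the RNA.

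The 5 genes did not share an order of levels across liver, marrow and spleen. Lyve1 and Oit3 were highest in the E14.5 liver, Dnase1l3 and Mrc1 in the NC spleen, and Gpihbp1 was lowest in the liver. Levels are given as CPM, the counts of a gene scaled to 1000000 gene counts of its section. CPM was read for each gene across sections and not between genes, because probes of different genes differ in yield.

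Lyve1 stood at 1249 CPM in the E14.5 liver, 181 in the P8 marrow, 70.5 in the NC spleen and 114 in the PHZ-treated spleen. The liver was therefore 6.92-fold above the marrow and 17.7-fold above the NC spleen. Oit3 stood at 2230.3 CPM in the liver, 82.5 in the marrow, 220.4 in the NC and 66.7 in the treated spleen. For Oit3 the liver was 27.0-fold above the marrow, the widest gap between these sections among the 5 genes, and 10.1-fold above the NC spleen. For both genes the liver stood above every other section, with no overlap of the counting intervals.

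Gpihbp1 went the other way. It stood at 157 CPM in the liver, 869 in the marrow, 856 in the NC and 846 in the treated spleen. The last 3 sections had overlapping counting intervals of 847 to 892, 838 to 874 and 829 to 863 CPM. The marrow was 5.54-fold and the NC spleen 5.45-fold above the liver. Per area the marrow, with 786 counts per mm2, lay more than 1.5-fold below the NC spleen with 1897 and the treated spleen with 1371, and the liver had 437.

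Dnase1l3 stood at 393 CPM in the liver, 159 in the marrow, 11258 in the NC spleen and 2096 in the treated spleen. The NC spleen was 28.6-fold above the liver and 70.7-fold above the marrow, which made Dnase1l3 the member with the widest range. In that spleen 46.1% of all cells held at least 1 count of it, against 14.3% in the treated spleen, 5.21% in the liver and 1.82% in the marrow. Thinning each cell to 50 counts, which left out 16928 shallower cells of the NC and 14650 of the treated spleen, gave 35.0% and 8.65%.

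Mrc1 stood at 2214 CPM in the liver, 2116 in the marrow, 5573 in the NC and 3253 in the treated spleen. Liver and marrow differed by 0.07 on the log2 scale (0.04 to 0.09). Counted over the nucleus only, this difference turned to −0.059.

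**Figure D1:**
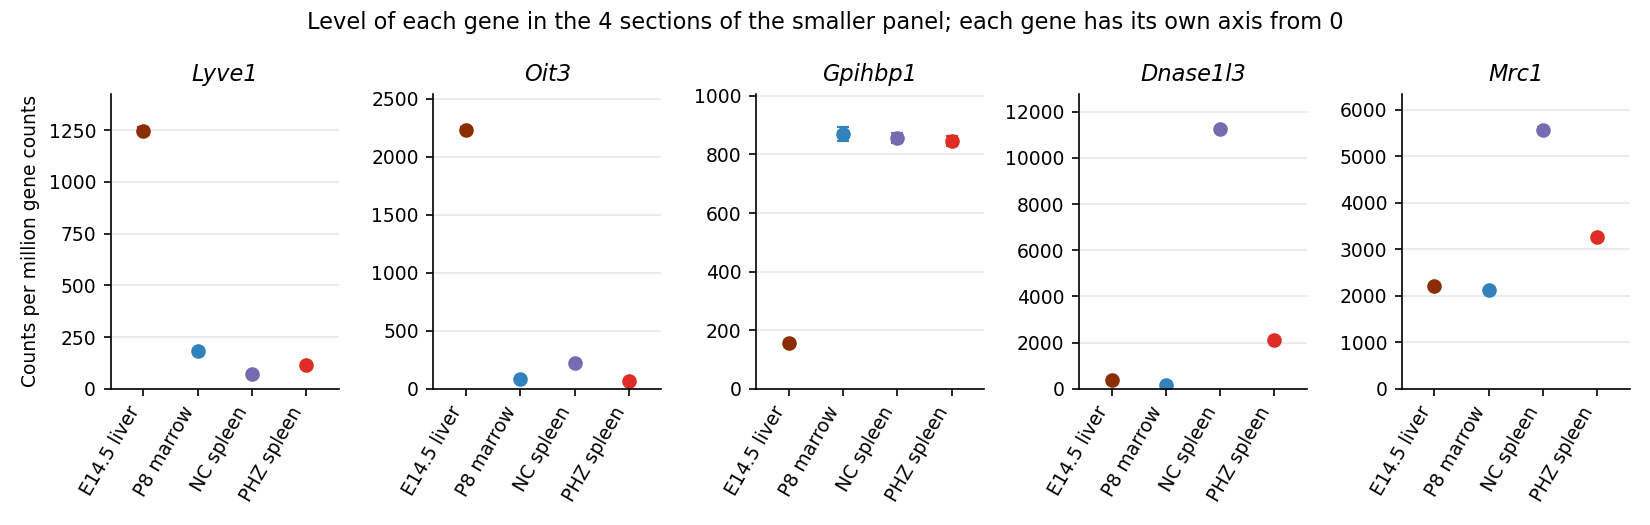
Level of Lyve1, Oit3, Gpihbp1, Dnase1l3 and Mrc1 in CPM (vertical axis, linear and from 0, with its own range for each gene) in the 4 sections of the smaller panel (horizontal axis). Points are section totals and bars are 95% Poisson intervals, which are mostly hidden by the points; Lyve1 and Oit3 peak in the E14.5 liver, Dnase1l3 and Mrc1 in the NC spleen.

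A difference of at least 1.5-fold between the E14.5 liver and the P8 marrow was common. Of 474 genes with at least 100 counts over both sections, 22.6% were higher in the liver by that much and 47% lower. Among the 5 genes, Lyve1, Oit3 and Dnase1l3 were higher, Gpihbp1 was lower and Mrc1 lay within 1.5-fold. Against the NC spleen, 23.8% of 475 genes were higher in the liver and 55.2% lower. There, Lyve1 and Oit3 were higher and Gpihbp1, Dnase1l3 and Mrc1 were lower. Of 473 genes, 32.1% were higher in the P8 marrow than in the NC spleen and 40% lower. Lyve1 was 2.56-fold higher in the marrow, Oit3, Mrc1 and Dnase1l3 were lower, and Gpihbp1 lay within 1.5-fold. With counts per area in place of CPM, the liver stood further above the marrow, by 4.41 for Lyve1, 6.38 for Oit3, 2.93 for Dnase1l3 and 1.69 for Mrc1 on the log2 scale, and Gpihbp1 remained lower by a difference of −0.85. With counts per cell, Mrc1 differed between the liver and the NC spleen by −0.43 in place of −1.33 on the log2 scale, which is within 1.5-fold. Per area, Lyve1 had 163 counts per mm2 in the P8 marrow and 156 in the NC spleen, so that its higher level in the marrow was lost, and Gpihbp1 was lower in the marrow. Tissue and age change together between these sections and cannot be told apart. Against the spleens the slide changes as well, since the liver and the P8 marrow were on one slide and the spleens on another.

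On the larger panel, Lyve1 had 813 counts in the E13.5 liver and 203 in the 89wk marrow, or 587 and 15.6 CPM. The E13.5 liver was therefore 37.7-fold above the aged marrow for Lyve1. Mrc1 had 325 and 1883 counts, or 235 and 144 CPM, a ratio of 1.63. Both gaps were wider by other scales. Lyve1 had 155 and 1.44 counts per 1000 cells and 1694 and 29.8 counts per mm2. Mrc1 had 61.9 and 13.4 counts per 1000 cells and 677 and 276 counts per mm2. At least 1.5-fold higher levels in the E13.5 liver were seen for 29.2% of 3614 genes and lower ones for 32.4%. Tissue and age change together here too, and median depth was 191 counts per cell in the E13.5 liver and 62 in the 89wk marrow. The paper also describes a preparation of its own for adult marrow, with cryosections of the femur before embedding. CPM values of the 2 panels are not on the same scale, so E13.5 was not set against E14.5, nor P8 against 89wk.

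The E14.5 fetal liver was the section in which the 5 genes behaved as a group. All 10 pairs of them were found in the same cells more often than cells of the same depth would give by independence, with an interval above 1. The same was true of 32.3% of 74305 pairs of panel genes found in at least 400 cells each. The expected number of shared cells was taken within 10 strata of total count, since any genes meet more often in deeper cells. Lyve1 and Oit3 shared 8310 cells against 2455.0 expected, a ratio of 3.38 (3.31 to 3.46). The highest ratio was that of Gpihbp1 with Dnase1l3, at 5.91 (5.53 to 6.31), and the lowest that of Oit3 with Mrc1, at 2.60 (2.55 to 2.65). Of the cells with Lyve1, 61.1% also held Oit3 and 55.1% also held Mrc1. A total of 663 liver cells held all 5 genes, and 7784 cells, or 6.63%, held at least 3 of them.

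Leading partners are the genes with the highest such ratio to a member, which need not share the most cells with it. In the liver they were other members and known vascular genes. Bmp2, a ligand that liver endothelium is known to release to control iron balance, was among the 3 leading partners of all 5 genes. Its ratio was 4.13 with Lyve1, 3.56 with Oit3, 5.99 with Gpihbp1, 4.52 with Dnase1l3 and 2.98 with Mrc1. Sox17, an endothelial transcription factor, led the partners of Gpihbp1 with a ratio of 7.76 (7.04 to 8.53) and was second for Dnase1l3 at 4.52. C1qb, the C1q gene with the most shared cells, had a ratio of 1.09 for Lyve1, 1.10 for Oit3, 1.08 (1.00 to 1.16) for Gpihbp1 and 1.30 (1.25 to 1.36) for Dnase1l3. The ratios of Gpihbp1 with C1qa and C1qc were 0.84 (0.75 to 0.94) and 0.95 (0.85 to 1.04), while those of Lyve1 and Oit3 with both genes were 1.07. For Mrc1 the C1qb ratio was 1.81 (1.78 to 1.85). Prox1, a transcription factor of lymphatic endothelium and of hepatocytes, was met less often than independence would give in cells with any member, with ratios between 0.72 and 0.88.

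**Figure D2:**
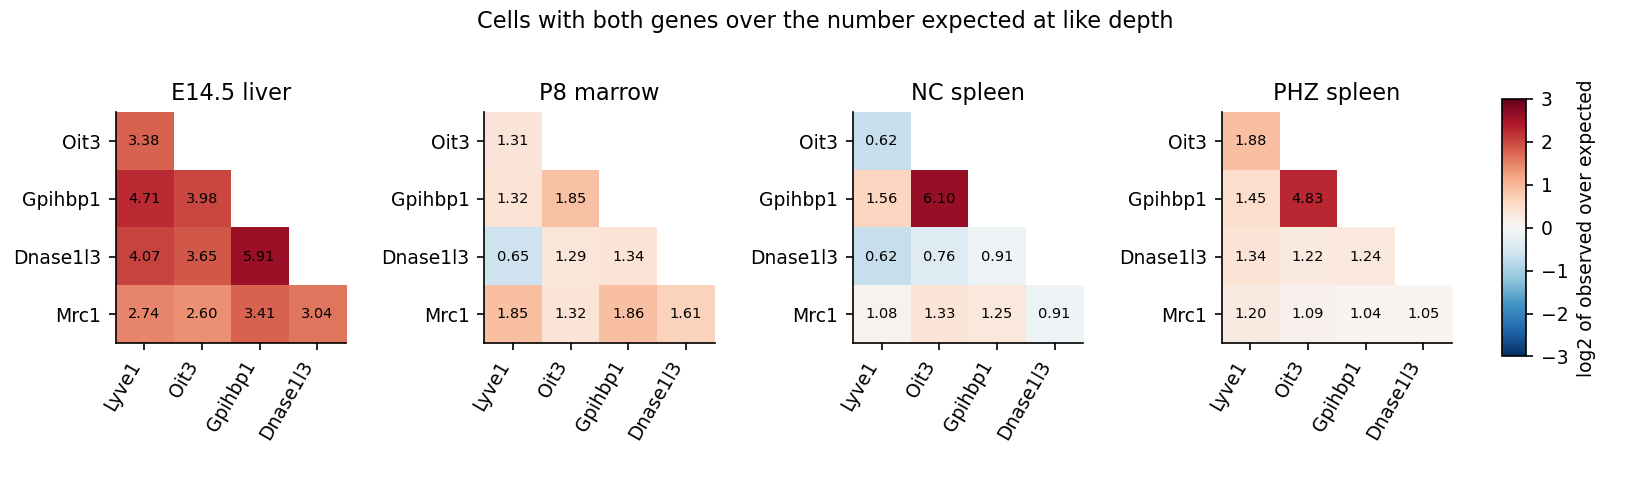
Number of cells with at least 1 count of both genes over the number expected within 10 depth strata, for each pair of the 5 genes (rows and columns) in the 4 sections of the smaller panel; the printed number is the ratio and the color its log2. All pairs lie above 1 in the E14.5 liver, and in the spleens the Oit3 and Gpihbp1 pair stands apart with 6.10 and 4.83.

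The liver counts of the 5 genes were concentrated in cells of the endothelial gate, that is, cells with at least 3 counts of Kdr, Tie1 and Clec14a together. Cells in this gate and not in the macrophage gate of at least 3 C1q counts made up 6.98% of the liver cells and held 7.95% of all gene counts. They held 53.6% of the Lyve1, 52.6% of the Oit3, 57.9% of the Gpihbp1, 47.2% of the Dnase1l3 and 40.5% of the Mrc1 counts. Oit3 reached 14758 CPM in these cells and 948 CPM in cells of neither gate. Median depth was 188 counts in cells of the endothelial gate alone, 168 in cells of the macrophage gate alone and 165 in cells of neither gate. For Lyve1, Oit3, Gpihbp1 and Dnase1l3 the cells of the macrophage gate alone held between 3.95% and 9.57% of the counts, below their 11.9% of all gene counts.

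Mrc1 was the member most shared with macrophages in the liver. Cells with at least 3 C1q counts, inside or outside the endothelial gate, were 12.8% of the liver cells and held 33.8% of the Mrc1 counts, 2.56 times their share of all gene counts. Mrc1 was found in 49.5% of them and in 14.7% of other cells. Mrc1 stood at 4858 CPM in the macrophage gate alone, 11282 in the endothelial gate alone and 722 in neither. The same share over the share of all counts was 1.28 for Dnase1l3, 1.06 for Lyve1, 1.05 for Oit3 and 0.90 for Gpihbp1. With transcripts over the nucleus only, the ratios of Lyve1 and Oit3 were 0.80 and 0.82, whereas those of Mrc1 and Dnase1l3 were 4.07 and 1.38.

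The positions of single molecules, which do not depend on outlines, showed the same grouping in the liver. Pairs of molecules within 5 µm were counted per area and divided by pairs 20 to 25 µm apart per area. The ratio was 7.53 for Lyve1 with Oit3, 8.42 for Oit3 with Gpihbp1, 7.38 for Lyve1 with Dnase1l3 and 6.40 for Lyve1 with Mrc1. With Kdr, Tie1 and Clec14a together, the 5 genes had ratios between 5.95 and 8.14. With the C1q genes the ratio was 3.47 for Mrc1, 1.36 for Dnase1l3 and 0.80 to 0.97 for the other members. Slc4a1, which encodes the erythrocyte anion exchanger band 3, served as a background gene and gave between 0.84 and 0.94.

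The E13.5 liver, on its other panel, had the same pairing of Lyve1 and Mrc1. They shared 126 cells against 28.4 expected, a ratio of 4.43 (3.69 to 5.28). The leading partners of Lyve1 were Bmp2, Ppp1r16b and Flt4, with ratios of 5.40, 5.05 and 4.80. FLT4 is the receptor of the lymphatic growth factor VEGF-C and is also found on sinusoidal endothelium. The leading partners of Mrc1 were Bmp2, the endothelial adhesion gene Esam and the scavenger receptor gene Cd36, with 5.83, 5.58 and 5.35. Cells with at least 3 C1q counts were 5.73% of the cells and held 24% of the Mrc1 counts and 10.5% of the Lyve1 counts, against 7.74% of all gene counts. Within depth strata Lyve1 and C1q cells met in 30 cells against 31.1 expected, a ratio of 0.96 (0.65 to 1.38). The endothelial gate alone, 2.63% of the cells, held 35.3% of the Lyve1 and 26.2% of the Mrc1 counts.

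In the P8 marrow the leading partners differed among the 5 genes, and Cd163 alone was among the leading 3 of more than 1 of them. Of the 10 pairs, 7 had a ratio with an interval above 1, as had 39.2% of 47278 pairs of panel genes, and no ratio exceeded 1.86, the value of Gpihbp1 with Mrc1. Many other genes met a member at ratios as high. Lyve1 ranked 101 of 251 and Dnase1l3 99 of 251 among the partners of Gpihbp1. Lyve1 with Dnase1l3 had 13 shared cells against 19.9 expected, a ratio of 0.65 (0.35 to 1.12). By molecule pairs, different members had ratios from 1.32 for Lyve1 with Dnase1l3 to 2.89 for Oit3 with Gpihbp1. The range was 5.80 to 8.50 in the E14.5 liver. With Slc4a1 the 5 genes had 0.76 to 1.09 in the marrow. No marrow cell held all 5 genes, which allows a share of up to 0.00594%, and 0.364% of the cells held at least 3.

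Gpihbp1 in the marrow went with endothelial genes. Its leading partners were Aqp7, which encodes a glycerol channel, Sox17 and Tie1, with ratios of 4.28, 4.10 and 3.63, and its Kdr ratio was 3.56. The endothelial gate alone held 46.4% of its counts in 5.06% of the cells. Its level ranged from 49.5 to 3934 CPM over 43 tiles of 500 µm with at least 200 cells, with a median of 710. The 3 tiles with the most Gpihbp1 counts held Prox1 at 442 CPM against 73.7 in the rest, and Mmrn1 at 615 against 1202. The section is of a femur, and whether all tiles lay in marrow was not tested.

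Lyve1 in the marrow met genes of several cell types. Its leading partners were Folr2, a folate receptor gene of resident macrophages, with a ratio of 4.46 (3.81 to 5.18), the hemoglobin scavenger receptor gene Cd163 with 4.25, and Dpt, a gene of the fibroblast matrix, with 4.03. Its Kdr ratio was 1.27. In Lyve1 cells the lymphatic list stood at 4.03 times its level in cells of like depth, the megakaryocyte list at 3.38, the stromal list at 1.81, the endothelial list at 1.703 and the macrophage list at 1.36. On the smaller panel the lymphatic list is Prox1 and Mmrn1, and Mmrn1 is found in platelets too. Vwf is in both the endothelial and the megakaryocyte list. The C1q cells, 11.5% of the marrow cells, held 33.1% of the Lyve1 counts, 2.23 times their share of all gene counts. Molecules of Lyve1 lay near those of the C1q genes with a ratio of 2.36 and near those of Kdr, Tie1 and Clec14a with 2.58. Over the tiles Lyve1 ranged from 0 to 912 CPM, with a median of 121.

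Oit3 and Dnase1l3 were rare in the marrow, with 531 and 1025 counts. Oit3 led to Atp6v0d2, a proton pump gene of osteoclasts, with 112 shared cells and a ratio of 4.22 (3.47 to 5.07), ahead of Kdr with 1.96 and the syndecan gene Sdc1 with 1.92, and its Tie1 ratio was 1.69. Molecules of Oit3 lay near those of Kdr, Tie1 and Clec14a with a ratio of 3.29 and near those of the C1q genes with 0.94. Dnase1l3 led to Slamf7, Epsti1 and Il18, genes of lymphoid and inflammatory cells, with ratios of 2.56, 2.10 and 2.03. Of the Dnase1l3 counts 26.2% lay in C1q cells, 1.77 times their share of all counts. Its level was 285 CPM in the macrophage gate alone, 278 in the endothelial gate alone and 125 in neither. Its ratio was 1.82 with Clec14a and 1.74 with C1qa. Molecules of Dnase1l3 lay near those of the C1q genes with a ratio of 2.01 and near those of Kdr, Tie1 and Clec14a with 1.92.

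Mrc1 in the marrow lay between macrophages and vessels. Its CPM was 5692 in the macrophage gate alone, 5289 in the endothelial gate alone and 1107 in neither. Its leading partners were Cyp4b1, a cytochrome P450 gene, with a ratio of 2.45, and the macrophage receptor genes Siglec1 and Cd163 with 2.32 and 2.20. The ratios with Kdr, Tie1 and Clec14a were 1.84, 1.75 and 1.90, and those with C1qa, C1qb and C1qc 1.97, 1.69 and 1.93. C1q cells held 41.6% of the Mrc1 counts, 2.80 times their share of all counts. Molecules of Mrc1 lay near those of the C1q genes with a ratio of 3.24 and near those of Kdr, Tie1 and Clec14a with 2.88.

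The 89wk marrow held Lyve1 in 186 of 140707 cells and Mrc1 in 1731. They shared 4 cells against 4.24 expected. Only Ppbp, Flna and Lyz2 were found together with Lyve1 in at least 100 cells. Ppbp, a chemokine gene of platelets and megakaryocytes, was in 101 of the 186 cells against 25.6 expected, a ratio of 3.95 (3.22 to 4.80), while Flna, which encodes the actin crosslinker filamin A, had 1.75 and Lyz2, the lysozyme gene of myeloid cells, 1.20. The megakaryocyte list of Pf4, Ppbp and Vwf was 10.1-fold higher in the Lyve1 cells than in cells of like depth. The lymphatic list was 6.08-fold higher, the endothelial list 5.40-fold, and the macrophage list stood at 0.92 of the level at like depth. These lists are not independent. The endothelial list shares Vwf with that of megakaryocytes and Flt4 with the lymphatic list, which also holds Mmrn1, a gene found in platelets too.

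Mrc1 in the aged marrow had its highest ratios with Sema3a, Flt4 and Abcc9, at 7.09, 5.97 and 5.55. It shared more cells with C1qa, 582, than with these genes, 118, 165 and 146. SEMA3A is a secreted guidance factor of vessels and nerves, and ABCC9 is a subunit of a potassium channel of vessel walls. The Kdr ratio was 4.81 (4.01 to 5.73) and the C1qc ratio 3.40 (3.08 to 3.75), with 3.12 for C1qb and 2.93 for C1qa. C1q cells were 2.90% of the cells and held 25.4% of the Mrc1 counts, 4.92 times their share of all counts. The endothelial gate held 80 cells outside and 5 inside the macrophage gate of this section, where Tie1 and Clec14a had 742 and 723 counts.

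In the NC spleen Oit3 and Gpihbp1 lay together with endothelial genes. Oit3 and Gpihbp1 shared 699 cells against 114.6 expected, a ratio of 6.10 (5.65 to 6.57). Of all 63903 pairs of panel genes, 24.1% had an interval above 1. The other 3 pairs of members that had one were Lyve1 with Gpihbp1 at 1.56, Oit3 with Mrc1 at 1.33 and Gpihbp1 with Mrc1 at 1.25. Dnase1l3 met each of the other members less often than independence would give, with ratios from 0.62 to 0.91. Without depth strata its ratios with Gpihbp1 and Mrc1 turned to 1.06 and 1.04, and near molecules of Mrc1 those of Dnase1l3 had a ratio of 1.11.

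Oit3 and Gpihbp1 had their highest ratios with Sox17, at 6.18 and 7.38, and the next highest with each other. After these came Prox1 for Oit3 with 5.67, and the progenitor and endothelial gene Cd34 for Gpihbp1 with 4.59. The endothelial gate alone, 2.48% of the cells, held 23.2% of the Oit3 and 27.0% of the Gpihbp1 counts. Cells of both gates, 1.42% of the cells, held another 27.9% and 31.2%. Gpihbp1 reached 6864 CPM in the endothelial gate alone and 390 in neither. Both genes were lower in the 25% of 50 µm squares richest in the T cell receptor genes Cd3d and Cd3e, which mark the white pulp. Gpihbp1 stood at 360 CPM in those squares and 1039 in the rest, and Oit3 at 74.1 and 275.

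Mrc1 in the NC spleen was found mainly in the C1q cells. The 36.0% of cells with at least 3 C1q counts held 87.8% of its counts, 1.87 times their share of all gene counts. Of the cells with at least 3 Mrc1 counts 97.6% were C1q cells. The erythroid background gene Slc4a1 also had 76.3% of its counts in C1q cells, 1.63 times their share. Within depth strata the ratios were 1.64 for Mrc1 and 1.37 for Slc4a1. Mrc1 stood at 10448 CPM in C1q cells and 1278 in other cells. Its leading partners were Cd163, Cd5l, a macrophage gene of the red pulp, and the procollagen enhancer gene Pcolce2, with 1.89, 1.81 and 1.75. Its ratio was 1.07 with Kdr and 1.01 with Tie1. It was lower in the T cell squares, with 1550.5 CPM there and 7061 in the rest.

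Dnase1l3 in the NC spleen was spread over cells inside and outside the macrophage gate. C1q cells held 46.9% of its counts and 46.8% of all gene counts. Its level was 11660 CPM in the macrophage gate alone, 11655 in neither gate and 5085 in the endothelial gate alone. In the T cell squares it stood at 13431 CPM, against 10455 in the rest. Its leading partners had ratios of 1.43 for Timd4, which encodes a receptor for dying cells, 1.42 for the uncharacterized gene 2610528A11Rik and 1.42 for Siglec1. Since 46.1% of the cells held Dnase1l3, its ratios here have a low ceiling and cannot be set beside those of rarer genes or of other sections. The ratio with Tie1 was 0.67 (0.64 to 0.69).

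Lyve1 in the NC spleen was concentrated in a small area. The 3 of 31 tiles of 500 µm with the most Lyve1 held 54.1% of its counts and 11.3% of all gene counts. Tiles with at least 200 cells ranged from 0 to 1086 CPM around a median of 36.5. Its leading partners were Car3, which encodes a carbonic anhydrase of fat and muscle, with 8.07 (6.62 to 9.76), Mmrn1, a gene of lymphatic endothelium and platelets, with 5.62, and Dpt with 4.95. Prox1 and Mmrn1, the genes of the lymphatic list on this panel, were together 16.2-fold higher in Lyve1 cells than in cells of like depth. The megakaryocyte list was 8.16-fold and the stromal list 2.28-fold higher. Whether the 3 tiles lay wholly in spleen tissue was not tested, and the section level of Lyve1 includes them. Lyve1 with Oit3 had 8 shared cells against 12.9 expected.

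**Figure D3:**
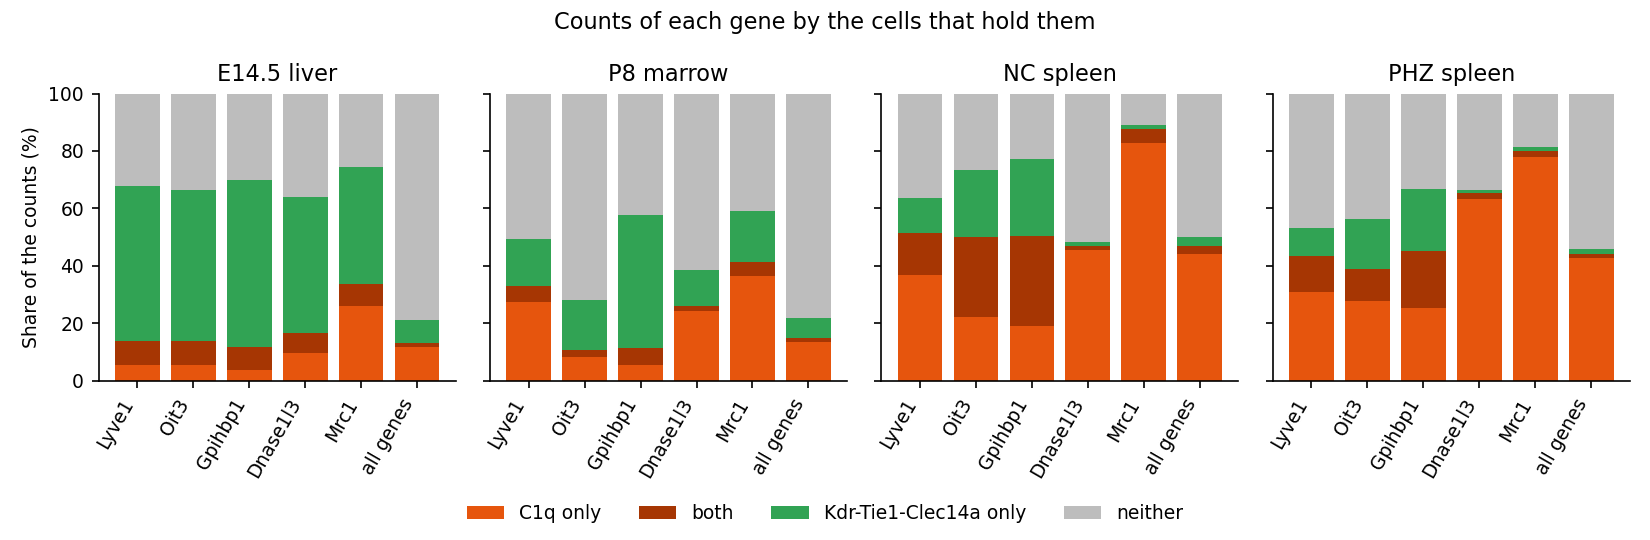
Share of the counts of each gene, and of all genes, in percent (vertical axis) that lay in cells with at least 3 C1q counts only, with at least 3 counts of Kdr, Tie1 and Clec14a only, with both, or with neither, in the 4 sections of the smaller panel. The endothelial gate alone holds 40.5% to 57.9% of each gene in the E14.5 liver, and the C1q gate alone holds 82.9% of Mrc1 in the NC spleen.

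Sharing with C1q cells in the NC spleen was not the same by all measures for Lyve1, Oit3 and Gpihbp1. Their share of counts in C1q cells over the share of all counts was 1.10, 1.07 and 1.07, but 0.95, 0.87 and 0.82 with transcripts over the nucleus only, and their cells met C1q cells within depth strata with ratios of 0.94, 0.93 and 0.97. Near molecules of the C1q genes, molecules of Oit3 and Gpihbp1 had ratios of 0.73 and 0.88, those of Lyve1 0.98, those of Dnase1l3 1.37 and those of Mrc1 1.73. Near molecules of Kdr, Tie1 and Clec14a, those of Dnase1l3 had a ratio of 0.73. For Mrc1 the ratio lay above 1 in all 6 sections under each alternative that was run there.

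The PHZ-treated spleen was compared with the NC spleen on the same slide and panel. Dnase1l3, Oit3 and Mrc1 were lower, Gpihbp1 lay within 1.5-fold and Lyve1 was higher. Dnase1l3 had 116544 counts in the NC and 23963 in the treated spleen, a log2 ratio of −2.42 (−2.45 to −2.40), or 5.37-fold lower. Oit3 had 2282 and 762 counts, a log2 ratio of −1.73 (−1.85 to −1.61), or 3.31-fold lower. Mrc1 had 57693 and 37179 counts, a log2 ratio of −0.78 (−0.80 to −0.76), or 1.71-fold lower. Gpihbp1 had 8858 and 9673 counts, a log2 ratio of −0.02 (−0.06 to 0.03). Lyve1 had 730 and 1308 counts, a log2 ratio of 0.70 (0.57 to 0.83), or 1.62-fold higher.

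These differences need to be read against the whole panel. Of 472 genes with at least 100 counts over both spleens, 41.5% were at least 1.5-fold lower after PHZ and 16.5% at least 1.5-fold higher, and the median log2 ratio was −0.45. Of the 5 genes, 3 were lower, 1 was higher and 1 lay within 1.5-fold. Dnase1l3 ranked 452 of 472 from the highest ratio, Oit3 411 and Mrc1 310, whereas Gpihbp1 ranked 133 and Lyve1 73. All 7 erythroid genes, such as Slc4a1, were higher, with a median log2 ratio of 4.03. Counted per cell, the log2 ratios were −2.08 for Dnase1l3, −1.39 for Oit3, −0.44 for Mrc1, 0.32 for Gpihbp1 and 1.04 for Lyve1. Mrc1 was then within 1.5-fold.

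Tiles within the sections showed how far each difference reached, though tiles of 1 section are not replicates. For Dnase1l3 the 26 NC tiles ran from 4517 to 16199 CPM and the 40 treated tiles from 265 to 5898, and 36 of the treated tiles lay below the lowest NC one. For Oit3 a single treated tile exceeded the NC median of 219 CPM. For Mrc1 no treated tile did, but the NC tiles themselves ran from 1641.5 to 12759 CPM, against 1587 to 4683 in the treated spleen. Gpihbp1 overlapped widely, with medians of 890.5 and 783 CPM.

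Most Lyve1 counts after PHZ lay in few places. Its tile median was 30.7 CPM against 36.5 in the NC spleen, so that the tile medians gave a log2 ratio of −0.25, and counted per area the ratio was 0.25. Without the 3 tiles with the most counts in either spleen it was 0.60. In the treated spleen 56.4% of the Lyve1 counts lay in 3 of 48 tiles, and 1001 of its 1308 counts in the squares rich in T cell genes, where it stood at 346 CPM against 36.0 in the rest. In the NC spleen the squares held 104 of its 730 counts, at 37.2 CPM against 82.8 in the rest. The squares are the richest 25% of each spleen and need not be the same zone in both. The T cell genes themselves were lower after PHZ, with a median log2 ratio of −2.70, and C1qb stood at 8068 CPM in the squares and 16929 in the rest of the NC spleen, but at 18050 and 12267 after PHZ. After PHZ it met Nts, the neurotensin gene, which lymphatic endothelium is known to express, with a ratio of 13.3 (11.1 to 15.8), Mmrn1 with 7.88 and the caveolar gene Cavin2 with 4.68. The lymphatic list was 17.95-fold and the megakaryocyte list 3.39-fold higher in Lyve1 cells than in cells of like depth. The 3 tiles held Nts at 451 CPM against 120 in the rest, and Mmrn1 at 576 against 296.

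**Figure D4:**
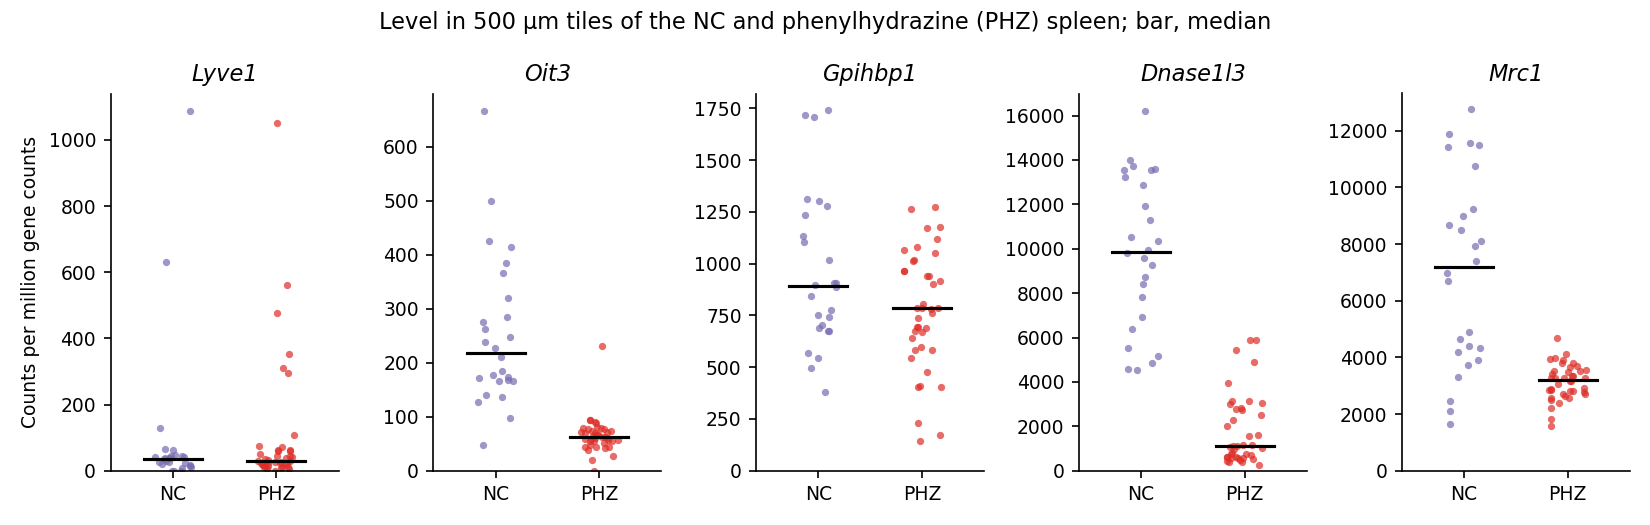
Level of the 5 genes in tiles of 500 µm with at least 200 cells, in CPM (vertical axis, linear, with its own range for each gene), for 26 tiles of the NC and 40 of the PHZ-treated spleen; each point is a tile and the bar is the median. Treated tiles of Dnase1l3 lie mostly below all NC ones, whereas 3 tiles hold 54.1% of the Lyve1 counts of the NC and 56.4% of those of the PHZ-treated spleen.

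**Figure D5:**
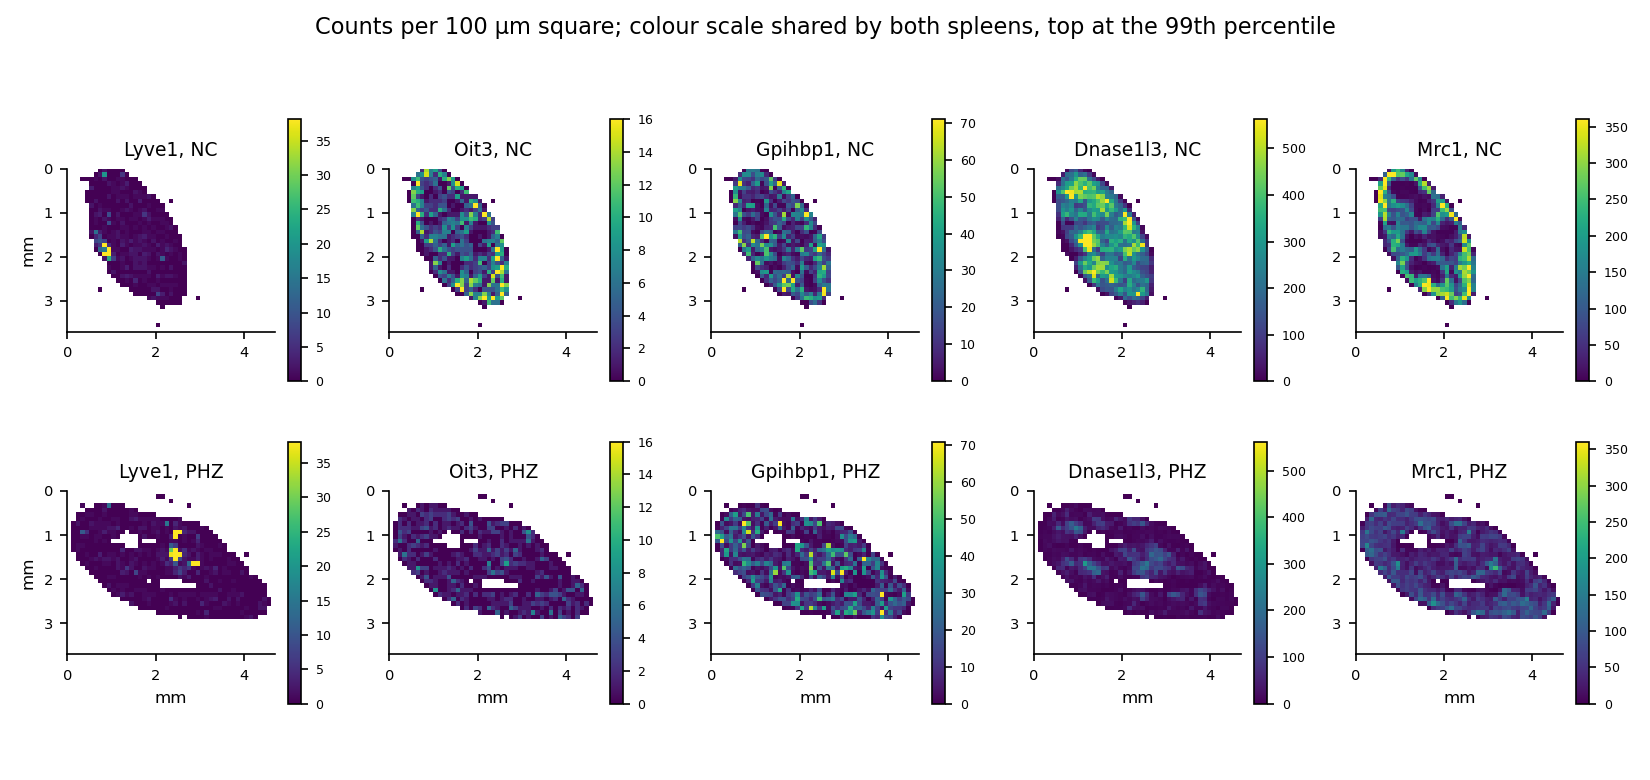
Maps of the NC (upper row) and PHZ-treated spleen (lower row) with the counts of each gene per square of 100 µm (color, the same scale for both spleens, ending at the 99th percentile), and axes in mm at one scale. Lyve1 lies in small spots, Mrc1 of the NC spleen spares compact areas, and Dnase1l3 is dim in most of the treated section.

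The share of all panel genes past 1.5-fold was not computed within gates, in CPM or per cell. The calls within gates given here and in the next paragraphs therefore have no background. Within each of the 4 gates, Dnase1l3 and Oit3 were at least 1.5-fold lower after PHZ. Gpihbp1 lay within 1.5-fold in all 4, with log2 ratios of 0.31 to 0.52. Lyve1 had a log2 ratio of 0.49 in the macrophage gate alone and of 0.95 to 1.44 in the others. Counts per cell changed some of these calls. Gpihbp1 was then at least 1.5-fold higher in 3 gates, with 0.0453 and 0.0760 counts per cell in the macrophage gate alone, 0.892 and 1.47 in the endothelial gate alone and 0.0302 and 0.0537 in neither. Lyve1 was then at least 1.5-fold higher in the macrophage gate alone too, with 0.00716 and 0.0124. Dnase1l3 in cells of both gates, with 0.988 and 0.660, was then just within 1.5-fold. In cells of the macrophage gate alone, Dnase1l3 was at 11660 CPM in the NC and 3106 in the treated spleen, a log2 ratio of −1.91. In cells of neither gate it was at 11655 and 1308, a log2 ratio of −3.15 (−3.19 to −3.12). After PHZ, C1q cells held 65.5% of the Dnase1l3 counts, 1.48 times their share of all counts, and the T cell squares stood at 4338 CPM against 1336 in the rest. Timd4 was again its leading partner, with a ratio of 3.68, followed by Insm1 and Hap1, genes known from neuroendocrine and nerve cells, with 2.92 and 2.50.

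Mrc1 stayed with the C1q cells after PHZ, which held 80.1% of its counts. In the macrophage gate alone it was at 10493 CPM in the NC and 5929 in the treated spleen, a log2 ratio of −0.82, and in neither gate at 1212 and 1132. Per cell the macrophage gate alone had 1.28 and 0.893 Mrc1 counts, which is within 1.5-fold. In cells of both gates the log2 ratio was −1.04, with 1.82 and 1.01 counts per cell, and in the endothelial gate alone it was −0.15. Its leading partners after PHZ were Cd163, the F4/80 gene Adgre1 and Ms4a7, with 1.87, 1.69 and 1.67. In the T cell squares after PHZ it stood at 2907 CPM, against 3370 in the rest, and there Gpihbp1 stood at 841 against 848 and Oit3 at 68.0 against 66.2.

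After PHZ 7 of the 10 pairs had an interval above 1, as had 44% of 59340 pairs of panel genes. Among these 7, Dnase1l3 had ratios of 1.24 with Gpihbp1, 1.22 with Oit3 and 1.05 with Mrc1. Their ratios of molecule pairs were below 1, at 0.64, 0.80 and 0.96. The rest of the 7 had molecule ratios from 1.16 to 6.45. Gpihbp1 and Oit3 stayed together, with 202 shared cells against 41.8 expected, a ratio of 4.83 (4.19 to 5.55). Among cells of the endothelial gate alone, Gpihbp1 was at 6864 CPM in the NC and 9859 in the treated spleen, a log2 ratio of 0.52, and Oit3 at 1520.9 and 629.5, a log2 ratio of −1.27. The gate alone held 2682 of 108327 NC and 1418 of 94492 treated cells. Of its own genes, Kdr and Clec14a were lower after PHZ over the whole section, with log2 ratios of −1.28 and −1.86, and Tie1 lay within 1.5-fold, at −0.51. The part of these genes in the gated values was not tested. The leading partners of Gpihbp1 after PHZ were Sox17, AU021092 and Bmp2, with 6.58, 6.42 and 5.59, and those of Oit3 were AU021092, Gpihbp1 and Tie1, with 6.43, 4.83 and 4.48.

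The other endothelial and macrophage genes of the panel give the setting. Of 22 endothelial genes measured, 14 were at least 1.5-fold lower after PHZ, 5 higher and 3 within, with a median log2 ratio of −0.86, beside 41.5% of all genes lower and a median of −0.45. Among those with at least 1000 counts over both spleens, the lowest were Cavin2 and Clec14a, at −2.01 and −1.86, and the highest Prx and Podxl, at 3.27 and 2.81. After PHZ, Prx and Podxl stood at 12471 and 5385 CPM, against 684 for Kdr. Whether endothelial cells held their counts was not tested. Of 19 macrophage genes, 9 were lower, 0 were higher and 10 lay within, with a median of −0.56, which is near the values over all genes. Timd4 and Cd163 were lowest, at −2.82 and −2.33, and Folr2 and Cd68 highest, at 0.41 and 0.33. C1qb differed by −0.08. Both genes of the lymphatic list, Prox1 and Mmrn1, were lower, with a median of −1.64. Lyve1 was higher in CPM of the whole section, but within 1.5-fold per area and by tile medians. Prox1 of the NC spleen met Oit3 and Gpihbp1 with ratios of 5.67 and 3.13, and Mmrn1 is found in platelets too.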

How the data were processed

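Xenium in situ images of 6 mouse sections were decoded and segmented by the authors, who deposited raw counts of transcripts per gene and cell. They also deposited the position of each transcript with a quality score, and the counts hold transcripts with a score of at least 20. The 4 sections of the smaller panel were segmented by expanding nuclei in 1 run, with the fetal liver and the P8 marrow on one slide and both spleens on another, and the 2 sections of the larger panel with boundary stains in a later run. Rebuilding the 4 count tables of the smaller panel from the deposited positions gave 0 entries that differed.

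From these counts, cells with at least 5 genes were kept. CPM, exact 95% Poisson and binomial intervals, co-detection within 10 depth strata, gates of at least 3 counts, tiles of 500 µm, T cell squares from Cd3d and Cd3e and ratios of near molecule pairs were computed in Python 3.11.15 with numpy 2.4.6, scipy 1.17.1 and pandas 2.3.3. The ratios of molecule pairs have no interval, because pairs are not independent. The computations were tested on simulated data. With 1 section per condition no test was run. Between sections, a level was called higher or lower at a difference of at least 1.5-fold in genes with at least 100 counts over both sections.

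Named were the 5 genes, the genes of both gates, the 3 leading partners of each gene in each section among genes seen with it in at least 100 cells (20 cells in the E13.5 liver), and the 2 genes with the highest and the 2 with the lowest spleen ratio of the endothelial and macrophage lists among genes with at least 1000 counts. The share of all gene pairs with an interval above 1 was taken over genes found in at least 400 cells of a section. That share, the T cell squares, the tile values of Mmrn1 and Nts and the liver values of Prox1 were added after values had been seen. The genes and lists were chosen with earlier results of these data known. The alternatives were counts per cell or per area, a total without Hbb-bt, cells with at least 20 counts, transcripts over the nucleus, a quality score of at least 30, co-detection without strata or with at least 2 counts, and at least 10 C1q counts. Tile medians, leaving out the 3 fullest tiles, counts per cell within the gates, and counts per cell or area for the P8 marrow against the NC spleen and for the larger panel were chosen after seeing the data.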

Additional observations from a re-analysis of the deposited data

How the results depend on the processing

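Of the counts of genes, pairs and sharing per section, 71 values under the alternatives were close to the main one and 13 were not. Of the values for single genes or pairs, 155 stayed within their counting interval, 182 moved further and 21 turned. Only a value whose main interval excluded no difference could be counted as turned. Other values that changed side were not counted so, as with Gpihbp1 after PHZ counted per cell. The number of members at least 1.5-fold higher after PHZ was 1, and 0 with counts per area, over the nucleus and by tile medians, where Lyve1 turned to −0.25. Over the nucleus, the Mrc1 difference of liver and P8 marrow turned to −0.059. Without depth strata, 7 in place of 4 pairs were above 1 in the NC spleen, where Gpihbp1 with Dnase1l3 turned to 1.06 and Dnase1l3 with Mrc1 to 1.04. The share of all gene pairs above 1 was not computed under these alternatives. In the treated spleen, the number of pairs above 1 was 3 in place of 7 with at least 2 counts, where Lyve1 with Gpihbp1 turned to 0.81 and Dnase1l3 with Mrc1 to 0.98. Over the nucleus the number was also 3, and Gpihbp1 with Dnase1l3 turned to 0.93.

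For sharing with C1q cells, the share of all panel genes with a ratio above 1 was not computed, so the numbers that follow have no background. The number of genes with a ratio above 1 for their share in C1q cells, at any distance from 1, was 2 in place of 4 in the E14.5 liver with at least 10 C1q counts (Lyve1 0.91, Oit3 0.83) and over the nucleus (Lyve1 0.80, Oit3 0.82). In the NC spleen it was 5, Dnase1l3 included, whose ratio of 1.00 had an interval that held 1, and it was 2 with at least 10 C1q counts (Oit3 0.86, Gpihbp1 0.93, Dnase1l3 0.99), within depth strata (Lyve1 0.94, Oit3 0.93, Gpihbp1 0.97) and over the nucleus (Lyve1 0.95, Oit3 0.87, Gpihbp1 0.82). In the treated spleen, Gpihbp1 turned from 1.02 to 0.55 over the nucleus. Lyve1 and Oit3 had 0.98 and 0.88 there in the main setting, and Lyve1 had 1.07 (0.94 to 1.20) within depth strata. Within strata the number was 1 in place of 2 in the E13.5 liver (Lyve1 0.96), and it was 2 in place of 1 in the 89wk marrow with at least 10 C1q counts. The cause of these differences was not tested. The Lyve1 values in spleen rest on 730 and 1308 counts, and those of the 89wk marrow on 203. No paired analysis was possible because each condition had 1 section and the labels give no replicate numbers.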
